A study of Mus musculus with 4 samples.

Results

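Collagens are the proteins of the fibres and sheets that hold a tissue together. The collagen genes on the array were taken as every non-control probe whose gene name in the files is Col, a number, the letter a and a number. This gave 78 probes of 40 genes, out of 41174 probes under 27962 gene names in all. They were grouped as fibrillar (types 1, 2, 3, 5 and 11, with 20 probes of 9 genes), basement membrane (type 4, with 13 probes of 6 genes) and other (45 probes of 25 genes). Col24a1 and Col27a1 also form fibrils, but this grouping places them among the others. The choice of probes used gene names only and no measured value, but the family was chosen with earlier results of these data known.

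Liver RNA of 8 male C57BL/6 mice on a high-fat diet was compared. The 4 mice of one group received an antisense oligonucleotide (ASO, a short nucleic acid designed to pair with a transcript and reduce it) against Plin2, the coat protein of lipid droplets, and the 4 of the other a scrambled control ASO. Both oligonucleotides were given into the abdomen at 25 mg/kg, 2 injections a week, for 4 weeks; the age of the mice is not given in the sources used here. Each of 4 arrays carried 1 control liver in the red dye (Cy5) and 1 liver labelled Plin2-ASO in green (Cy3), so arrays 1 to 4 paired control mice 1, 2, 4 and 5 with mice 6, 7, 9 and 10.

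Each collagen is built of 3 chains wound into a triple helix, in which glycine recurs at every turn. The fibrillar chains of types 1, 3 and 5 form the scar fibres of a fibrotic liver, where stellate cells and portal fibroblasts make most of them, while type 4 forms a sheet under endothelial and epithelial cells. Types 6, 8 and 14 lie on or between fibres and cells, and types 15 and 18 lie at basement membranes. New chains are hydroxylated and folded in the endoplasmic reticulum, trimmed outside the cell, crosslinked by lysyl oxidases, and degraded by metalloproteinases.

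Several probes are shown here because probes of the same gene could give different results. Of the 78 collagen probes 3 (3.85%) contain at least 6 triplets of the form GGN, the codons of glycine, at a spacing of 9 bases, which is the repeat of the collagen helix. None of the 41096 other probes on the array does. The capitals mark these triplets, all probes have 60 bases, and each is written in the sense of the transcript. Positions are given as in the files (mouse build mm7), and no exon annotation of that build was used here. The 3 probes span 730, 2424 and 167 genomic bases in turn, so each crosses an exon junction.
Col5a3 (chr9:20655471-20656200, minus strand): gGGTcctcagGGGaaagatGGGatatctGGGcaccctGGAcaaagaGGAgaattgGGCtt
Col5a1 (chr2:27994034-27996457, plus strand): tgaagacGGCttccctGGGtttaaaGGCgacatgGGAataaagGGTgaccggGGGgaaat
Col11a2 (chr17:32131401-32131567, plus strand): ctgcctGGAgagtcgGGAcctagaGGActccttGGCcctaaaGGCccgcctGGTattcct

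Both Col1a1 and Col3a1 have a probe far upstream of the one near the 3′ end. These upstream probes are shown because they read the same genes from another stretch of the transcript, with smaller falls.
Col1a1, upstream probe (chr11:95047002-95047061, plus strand): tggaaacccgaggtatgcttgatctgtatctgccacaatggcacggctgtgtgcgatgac
Col3a1, upstream probe (chr1:45558167-45558226, plus strand): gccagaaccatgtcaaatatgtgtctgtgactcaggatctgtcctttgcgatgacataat

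The Col2a1 probes are the only pair of collagen probes that overlap. The capitals mark the 40 bases they share, and their readings are set side by side among the results.
Col2a1, downstream probe (chr15:97979237-97979296, minus strand): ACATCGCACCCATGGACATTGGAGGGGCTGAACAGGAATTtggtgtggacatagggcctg
Col2a1, upstream probe (chr15:97979257-97979316, minus strand): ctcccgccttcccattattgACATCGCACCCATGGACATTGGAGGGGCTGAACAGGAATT

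A ratio is the log2 of green over red on 1 array, so a positive value means a higher level in the liver labelled Plin2-ASO. The target checks the labels. Plin2, named Adfp in the files, had ratios of 0.24, 0.15, 0.83 and 0.36 on arrays 1 to 4, a mean of 0.40 ± 0.15 (SE, n = 4; adjusted p = 0.148 by limma). It thus did not fall where the labels place the targeting oligonucleotide. Had the dyes or the labels been exchanged, every direction given here would be mirrored, and without a dye swap the treatment and a probe's own dye bias cannot be told apart. Array 3 stood apart: the mean correlation of its ratios with the other arrays, across probes, was r = 0.33, against 0.52 to 0.65 for the rest (probes are not independent replicates). Outlier spots made up 7.61% of it, against 1.5% to 3.83%. The tissue label held: albumin (Alb), the main product of liver cells, was well above background in all 8 livers. It was itself 3.25-fold lower in the livers labelled Plin2-ASO, with ratios of -1.99, -1.62, -1.40 and -1.79 (mean -1.70 ± 0.14, SE, n = 4; adjusted p = 0.00139 by limma). Each p-value rests on the spread between the pairs of mice measured, at most 4, array noise included. The limma fit draws that spread toward the one typical of all probes tested. So few arrays limit the precision.

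In the livers labelled Plin2-ASO, Col1a1, Col1a2 and Col3a1 of the scar fibre, Col4a1, Col4a2 and Col4a5 of the basement membrane, and Col6a1 and Col6a2 of the type 6 filament were lower at 1 or more probes, while Col5a3 and Col27a1 were higher. For a test, a probe had to be well above background in 1 of the dyes on at least 3 arrays and measured on at least 3, which 51 collagen probes of 34 genes met. By limma, at an adjusted p under 0.05 over all 25843 probes tested, 14 collagen probes of 12 genes were lower (27.5%), and 3 probes of 2 genes were higher (5.88%). Over all probes tested 5.64% were lower and 4.35% higher, 9.99% in all. The other 34 collagen probes did not pass, with mean ratios of -0.80 to 0.64. Each of the 17 probes that passed had the same sign on every array that measured it. The median of all 51 was -0.08, near the -0.01 of all probes tested, so the middle of the family lay near that of the array.

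Of the 27 collagen probes not tested, 25 were too dim, 17 of these not well above background in any of the 8 livers, and 2 were measured on too few arrays. A probe can pass the filter through the group where it is high. This held for 3 collagen probes, of which those of Col4a5 and Col5a2 passed through the control livers only and were called lower. No probe of Col8a2, Col9a1, Col12a1, Col17a1, Col19a1 or Col28a1 was tested. The only Col12a1 probe read 0.66, 0.23, 0.86 and -0.21 and was bright enough in 3 of the 8 livers.

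**Figure D1:**
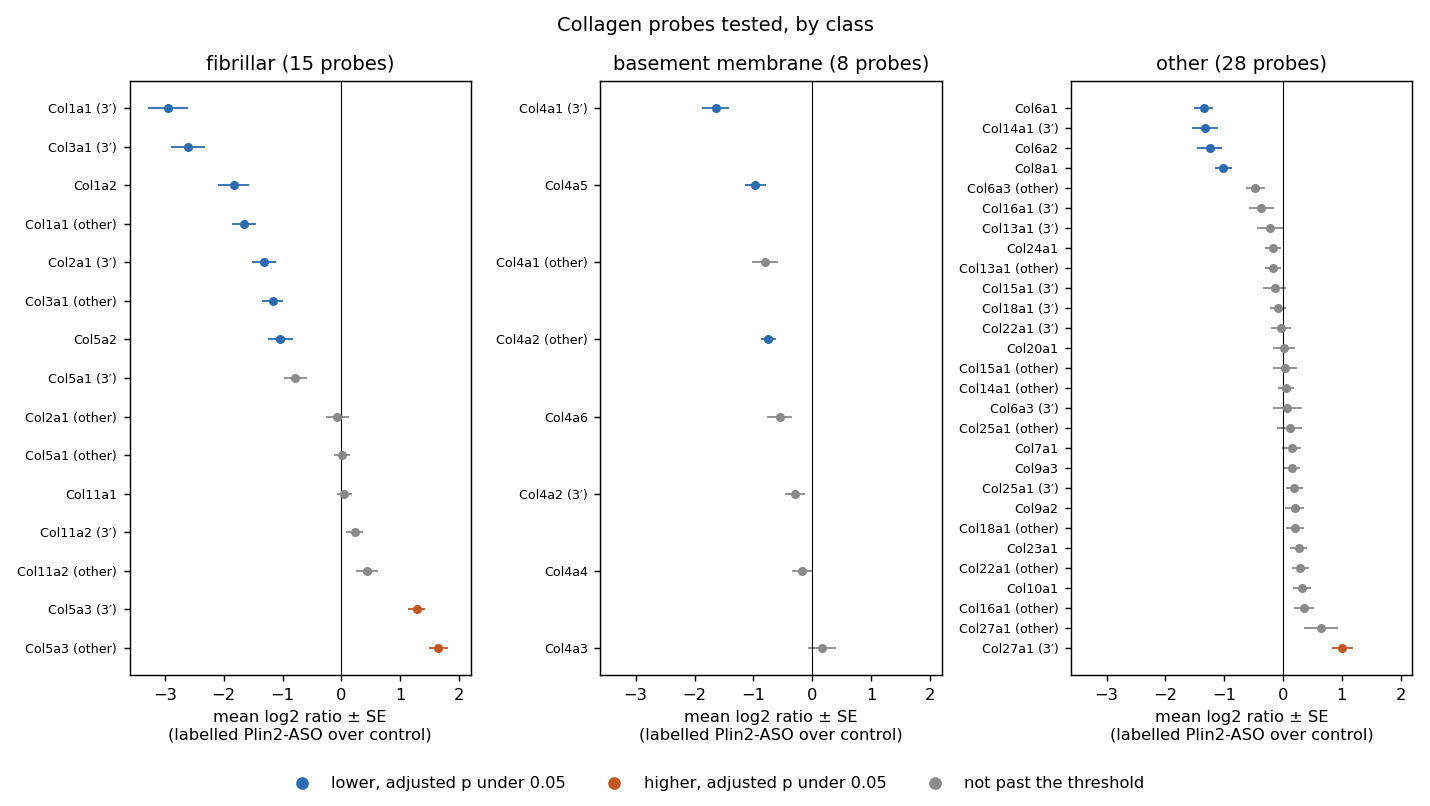
Mean log2 ratio (livers labelled Plin2-ASO over control) of each of the 51 collagen probes tested, by class, with the moderated standard error over 3 or 4 arrays; "3′" marks the probe nearest the 3′ end where a gene has 2 tested probes. The fibrillar class spans the whole range, from Col1a1 at -2.95 to Col5a3 at 1.65, while 23 of the 28 other probes did not pass.

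The fibrillar class held the largest falls and the largest rise. Of its 15 tested probes 7 were lower and 2 higher, with a median of -0.78. With the dim probes kept in, the median of the class was -0.091, so this median depends on the filter.

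Col1a1 encodes the more abundant chain of type 1 collagen, the main protein of scar. Its probe nearest the 3′ end (transcript NM_007742, chr11:95060800-95060859, plus strand) had normalized log2 levels of 12.30, 12.90, 11.67 and 11.66 in the control livers and of 8.95, 8.80, 9.97 and 9.03 in the livers labelled Plin2-ASO. The groups did not overlap, and the lowest control liver lay well above the highest of the others. The ratios were -3.35, -4.10, -1.70 and -2.64. The mean was -2.95 ± 0.35 (SE, n = 4), 7.72-fold lower (adjusted p = 0.00386 by limma), the 12th lowest of all probes tested. This probe is printed 10 times on each array, and its spots gave SDs of 0.10, 0.05, 0.04 and 0.12 within the arrays, against an SD of 1.02 between them. The spread of this value therefore lay between the pairs of mice or their arrays and not between spots. The upstream Col1a1 probe shown above read -1.65, -1.83, -2.17 and -0.95, a mean of -1.65 ± 0.20 (SE, n = 4; adjusted p = 0.00451 by limma), 3.14-fold lower. Another Col1a1 probe was marked as an outlier on 3 arrays and was not tested; it read -1.34 on array 4.

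Col1a2, which encodes the other chain of type 1 collagen, fell with it. Its levels were 14.25, 14.48 and 13.26 in the control livers of arrays 1, 2 and 4, and 12.25, 12.07 and 12.18 in the livers labelled Plin2-ASO; the spot of array 3 was an outlier and was left out. The ratios were -2.00, -2.41 and -1.08, a mean of -1.83 ± 0.26 (SE, n = 3; adjusted p = 0.0108 by limma), 3.56-fold lower. The call ended without array 1 or 2 (adjusted p = 0.0780 and 0.0742). A second Col1a2 probe was not above background in any liver.

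Col3a1 encodes the single chain of type 3 collagen, the thin fibre laid down early in wounds. At its 3′ probe (transcript NM_009930, chr1:45585395-45585454, plus strand) the control livers had levels of 15.06, 15.67, 14.73 and 14.56, and the livers labelled Plin2-ASO of 12.39, 11.91, 12.87 and 12.41. All control livers lay above all others. Ratios were -2.67, -3.76, -1.86 and -2.15, a mean of -2.61 ± 0.29 (SE, n = 4; adjusted p = 0.00335 by limma), 6.12-fold lower. The upstream probe read -1.02, -1.46, -1.54 and -0.66, a mean of -1.17 ± 0.18 and 2.25-fold lower (adjusted p = 0.00914 by limma), a call that ended without array 1 or 2 (adjusted p = 0.0516 and 0.0697).

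The upstream and 3′ probes of Col1a1 and Col3a1 ordered the arrays differently. At the 3′ probes array 3 had the smallest fall, at the upstream probes the largest. The GC content of the upstream probes was 53.3% for Col1a1 and 43.3% for Col3a1, against 36.7% and 40% for the 3′ probes, and array 3 was the array whose ratios correlated most strongly with probe GC, at r = -0.30 across probes against 0.04 to 0.25 on the others. The part of GC content in this order was not tested.

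Type 5 collagen, which sits in the core of type 1 fibres and sets their thickness, had chains going both ways. Col5a2, which encodes a chain of the common form, read -1.22, -1.64, -0.36 and -0.95. It was well above background in all 4 control livers and in none of the livers labelled Plin2-ASO, so its fold is only a bound: at least 1.56-fold lower (mean ratio -1.04 ± 0.21, SE, n = 4; adjusted p = 0.0238 by limma). A bound here sets the control mean against the dimmest signal that counted as above background on each array. Without array 1, 2 or 4 the call of Col5a2 ended (adjusted p = 0.135, 0.132 and 0.0648). For Col5a1, the other chain of that form, the 3′ probe read -1.19, -0.42 and -0.74 on arrays 2 to 4, a mean of -0.78 ± 0.19 that did not pass (adjusted p = 0.0551 by limma), and the helix probe shown above read 0.01 ± 0.14.

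Col5a3 encodes a rarer chain of type 5. Its helix probe, shown above, had levels of 8.49, 8.87, 8.98 and 8.94 in the control livers and of 10.47, 10.29, 10.26 and 10.84 in the livers labelled Plin2-ASO, with no overlap. The ratios were 1.99, 1.42, 1.28 and 1.90, a mean of 1.65 ± 0.16 (SE, n = 4), 3.13-fold higher (adjusted p = 0.00238 by limma). The probe nearer the 3′ end (chr9:20639940-20639999, minus strand) read 1.34, 1.43, 1.44 and 0.91, a mean of 1.28 ± 0.14 and 2.43-fold higher (adjusted p = 0.00354 by limma). Both probes stayed past the threshold with any 1 array left out, which made Col5a3 one of 5 collagen genes with such a probe, beside Col1a1, Col3a1, Col4a1 and Col6a1.

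**Figure D2:**
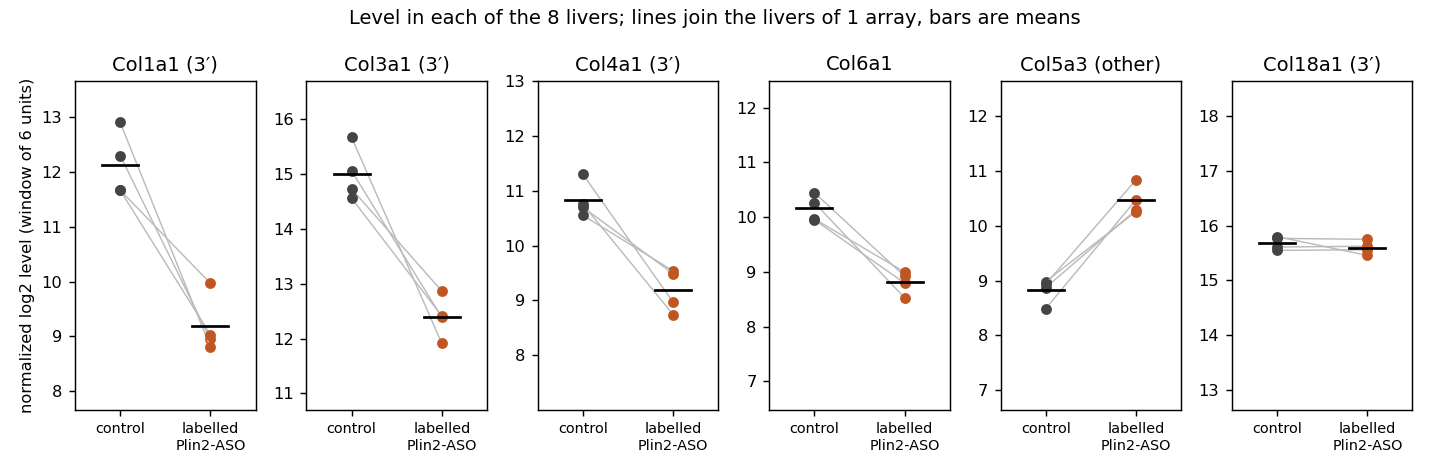
Normalized log2 level of 1 probe each of Col1a1, Col3a1, Col4a1, Col6a1, Col5a3 and Col18a1 in the 8 livers; grey lines join the livers of 1 array, black bars are group means, and each panel has its own axis of 6 units. The groups do not overlap in the first 5 panels and do in that of Col18a1.

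The remaining fibrillar genes are those of cartilage. Col2a1, whose chain forms type 2 collagen, gave different readings from its overlapping probes. The downstream probe, printed 10 times, read -1.29, -2.02, -0.76 and -1.20, a mean of -1.32 ± 0.20 (SE, n = 4; adjusted p = 0.0100 by limma), with SDs among its spots of 0.14 to 0.23. The upstream probe, which shares 40 of its 60 bases, read -0.04, 0.21, -0.75 and 0.29, a mean of -0.07 ± 0.19 (adjusted p = 0.852 by limma). Both were well above background in all 8 livers, and without array 1 the call of the downstream probe ended (adjusted p = 0.0594). Whether Col2a1 passed, and the size of its ratio, therefore depended on the probe. Col11a1 and Col11a2, which encode chains of the type 11 fibre of cartilage, did not pass, at 0.05 ± 0.12 for Col11a1 and at 0.22 and 0.43 for the probes of Col11a2.

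Of the 8 tested probes of basement membrane collagen 3 were lower, among them the dim one of Col4a5, and none higher, with a median of -0.65, or -0.23 with the dim probes kept in. Col4a1 and Col4a2 encode the chains of the common type 4 network, found in nearly all basement membranes. Col4a1 read -2.01, -2.33, -1.01 and -1.22 at its 3′ probe (transcript NM_009931, chr8:11167020-11167079, minus strand), from levels of 10.55 to 11.30 in the control livers to levels of 8.74 to 9.54 in the others. The groups were apart, and the mean ratio was -1.64 ± 0.23 (SE, n = 4; adjusted p = 0.00734 by limma), 3.13-fold lower. The other Col4a1 probe read -0.99, -1.22 and -0.21 on arrays 1, 2 and 4 and did not pass (mean -0.80 ± 0.23, adjusted p = 0.0769 by limma), although its livers did not overlap either.

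Col4a2 moved less. Its upstream probe read -0.84, -0.81, -0.52 and -0.81, a mean of -0.75 ± 0.13 (SE, n = 4; adjusted p = 0.0147 by limma), 1.68-fold lower, and its 3′ probe read -0.17, -0.59 and -0.10 on arrays 1, 2 and 4 and did not pass (mean -0.29 ± 0.17, adjusted p = 0.332 by limma). The Col4a2 call ended without array 1, 2 or 4 (adjusted p = 0.125, 0.115 and 0.0546). In the RefSeq annotation of GRCm38.p6 the starts of Col4a1 and Col4a2 lie 21 bases apart on opposite strands of chromosome 8.

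Col4a5 encodes a chain of the network known from the kidney filter. It read -1.07, -1.27, -0.35 and -1.17, a mean of -0.97 ± 0.18 (SE, n = 4; adjusted p = 0.0187 by limma). It was well above background in 1 of the 4 livers labelled Plin2-ASO and passed the filter through the control livers only, so its size is uncertain. Its call ended without array 1, 2 or 4 (adjusted p = 0.115, 0.126 and 0.0658). Its annotated start lies 1343 bases from that of Col4a6 on the opposite strand of chromosome X, and Col4a6 did not pass, at -0.16, -0.46, -1.39 and -0.22. Col4a3 and Col4a4, the partners of Col4a5 in that network, did not pass. Col4a3 read 0.36, 0.21, -0.72 and 0.80, and Col4a4 read -0.11, 0.17, -0.81 and 0.08. In Col4a3, Col4a4 and Col4a6 alike array 3 was the lowest.

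Of the 28 tested probes of the other collagens 4 were lower and 1 higher, and their median was 0.04. Type 6 collagen forms beaded filaments around cells from 3 chains. Col6a1 (chr10:76364050-76364109, minus strand) had levels of 9.95 to 10.45 in the control livers and of 8.53 to 9.00 in the livers labelled Plin2-ASO. It read -1.73, -1.53, -0.97 and -1.16, a mean of -1.35 ± 0.16 (SE, n = 4; adjusted p = 0.00429 by limma), 2.54-fold lower. Col6a2, its neighbour on chromosome 10, read -1.74, -1.73, -0.76 and -0.76, a mean of -1.25 ± 0.22 and 2.38-fold lower (adjusted p = 0.0142 by limma), but without array 1 or 2 the call ended (adjusted p = 0.0858 and 0.0911). The third chain, Col6a3, did not pass at either tested probe: its 3′ probe read -0.26, -0.40, 1.04 and -0.07, and the other -0.38, -0.43, -0.95 and -0.13. On array 3 these Col6a3 probes lay at opposite ends.

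Col8a1, a short-chain collagen of vessel walls and of activated mesenchymal cells, read -0.88, -1.10, -0.73 and -1.34, a mean of -1.01 ± 0.15 (SE, n = 4; adjusted p = 0.00794 by limma), 2.02-fold lower. Without array 1 or 2 it did not pass (adjusted p = 0.0524 and 0.0672). Col14a1, which binds to the surface of fibres, read -1.11, -1.90, -0.60 and -1.69 at its 3′ probe, a mean of -1.32 ± 0.22 (SE, n = 4; adjusted p = 0.0127 by limma), 2.50-fold lower. The other Col14a1 probe read 0.24, 0.03, -0.11 and 0.04 and did not pass (adjusted p = 0.840 by limma), and the call of the first ended without array 1 or 2 (adjusted p = 0.0587 and 0.0774).

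Col27a1 encodes a fibril-forming chain known from cartilage. At 1 probe (transcript AK003879, chr4:62768147-62768206, plus strand) it read 1.41, 0.51, 0.77 and 1.34, a mean of 1.01 ± 0.18 (SE, n = 4; adjusted p = 0.0174 by limma), 2.01-fold higher, with levels of 8.95 to 9.40 in the control livers and 9.82 to 10.75 in the others. A second probe read 1.33, 0.36, -0.37 and 1.27 and did not pass (mean 0.64 ± 0.28, adjusted p = 0.193 by limma). The Col27a1 call ended without array 1 or 4 (adjusted p = 0.113 and 0.0617).

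Col18a1 and Col15a1 did not pass. Col18a1, the precursor of endostatin, which liver cells themselves make, had levels of 15.46 to 15.75 in the livers labelled Plin2-ASO and 15.55 to 15.80 in the control livers at its 3′ probe. Its ratios were -0.02, 0.01, 0.01 and -0.34, with a mean of -0.08 and a 95% interval of -0.39 to 0.23, and a second probe read 0.40, 0.43, -0.14 and 0.12. Col15a1, its relative at vessel walls, read 0.37, -0.40, -0.45 and 0.60 at 1 probe and -0.02, -0.66, 0.49 and -0.36 at another. A miss of the threshold does not show equal levels, and the interval of Col18a1 gives the difference that the 4 arrays allow.

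Other genes whose probes differed in sign were Col16a1 and Col22a1. Col16a1, a collagen attached to fibres, read -0.41, -0.75, 0.44 and -0.74 at its 3′ probe and 0.28, 0.07, 0.17 and 0.91 at the other. Col22a1, known from tissue junctions, read 0.20, -0.35 and 0.04 on arrays 1, 2 and 4 at its 3′ probe and 0.37, 0.25, -0.04 and 0.58 at the other. None of these passed. Col7a1, Col9a2, Col9a3, Col10a1, Col13a1, Col20a1, Col23a1, Col24a1 and Col25a1 did not pass at any tested probe.

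**Figure D3:**
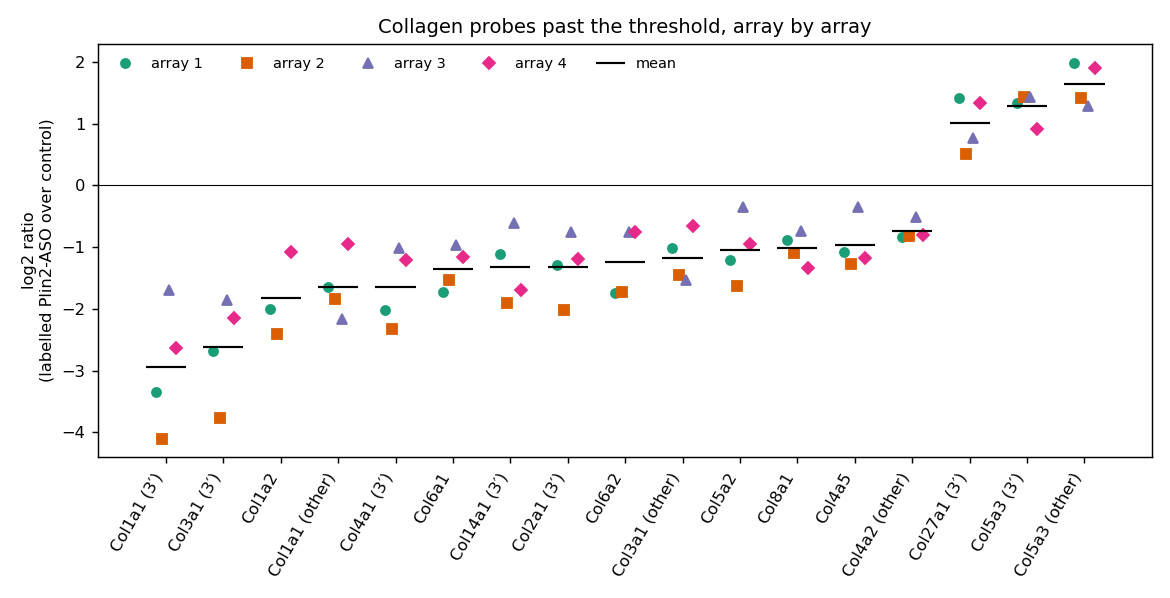
Log2 ratio (livers labelled Plin2-ASO over control) on each of the 4 arrays for the 17 collagen probes past the threshold, ordered by their mean, which is the black bar. Every point of the first 14 probes is below 0 and every point of the last 3 above; the spot of Col1a2 on array 3 is missing.

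The size of the falls differed between arrays. Of the 13 lower probes measured on all 4 arrays, 10 had their smallest fall on array 3 and 3 on array 4, while 7 had their largest on array 2. With array 3 left out all 17 calls remained and 25 collagen probes passed, 18 lower and 7 higher. Over all probes, though, the number called rose from 2582 of 25843 tested to 8809 of 26523. Leaving out array 1 or 2 kept 7 and 9 of the 17 calls, with 5 and 6 probes lower, and lowered the number called over all probes to 578 and 509. Leaving out array 4 kept 13. All 17 probes kept their sign each time. The levels come from the same spots as the ratios and are not separate evidence. Over all probes tested, the measured livers of each group did not overlap at 9.76% that were lower and 7.76% that were higher. Among the 51 collagen probes tested they did not overlap at 16 that were lower and 4 that were higher, including all 17 called. The share that was higher was thus close to that over all probes. At Col1a2 and at the uncalled probes of Col4a1, Col5a1 and Col10a1 the lack of overlap rests on 3 livers a group.

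In 11 of the 17 genes with 2 tested probes, the probe nearer the 3′ end had the larger absolute mean ratio. Some of the 11 were near ties, as in Col16a1 (-0.37 against 0.36), and the part of place along the transcript was not tested. The median absolute difference between the probes of a gene was 0.46 and the largest 1.44, for Col3a1. In 7 of the 17 genes the probes differed in sign, in 5 they differed in call, and in 3 (Col1a1, Col3a1 and Col5a3) both passed. In none of the 17 did both pass with opposite signs. The fall of Col1a1 and Col3a1 was thus read at a pair of separate places each, and the rise of Col5a3 likewise, while the falls of Col2a1, Col4a1, Col4a2 and Col14a1 and the rise of Col27a1 rested on 1 of 2 probes.

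**Figure D4:**
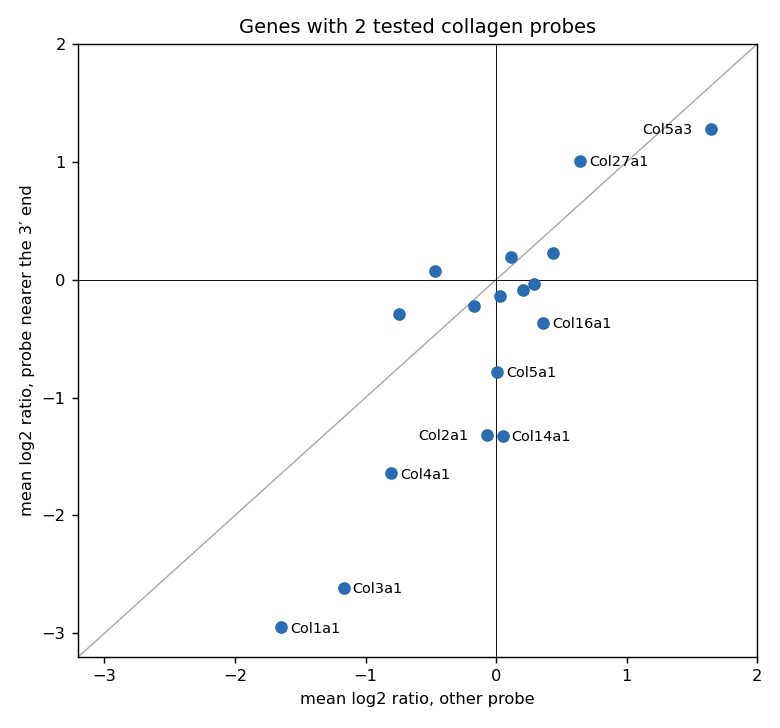
Mean log2 ratio of the probe nearer the 3′ end against that of the other probe, for the 17 collagen genes with 2 tested probes; the grey line marks equal values. Col1a1, Col3a1, Col2a1 and Col14a1 lie more than 1 unit below the line, and Col5a3 is far above 0 on both axes.

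The 250 bases before the annotated start are shown for Col1a2 and Col3a1, which fell, and for Col5a3, which rose. They are from RefSeq, build GRCm38.p6, in the sense of each gene, and 32 of the 40 collagen genes had such a sequence, 35 in all because some genes have several starts. Capitals mark 4 motifs: CCAAT (or ATTGG on the other strand), the TATA box core TATAAA (or TTTATA), the GC box GGGCGG (or CCGCCC), and the Smad-binding element CAGACA (or TGTCTG). None of the 4 overlaps another in these windows.
Col1a2 (chr6:4505368-4505617, plus strand): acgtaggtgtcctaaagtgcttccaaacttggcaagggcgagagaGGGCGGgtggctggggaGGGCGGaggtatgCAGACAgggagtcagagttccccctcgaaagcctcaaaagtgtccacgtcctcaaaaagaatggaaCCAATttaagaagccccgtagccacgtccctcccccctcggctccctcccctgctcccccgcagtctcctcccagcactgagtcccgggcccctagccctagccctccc
Col3a1 (chr1:45311288-45311537, plus strand): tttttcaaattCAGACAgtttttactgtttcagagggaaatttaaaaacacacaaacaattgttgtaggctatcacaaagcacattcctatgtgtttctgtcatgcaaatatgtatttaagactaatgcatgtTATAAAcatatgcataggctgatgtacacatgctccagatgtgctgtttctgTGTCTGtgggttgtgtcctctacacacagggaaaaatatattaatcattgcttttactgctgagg
Col5a3 (chr9:20815068-20815317, minus strand): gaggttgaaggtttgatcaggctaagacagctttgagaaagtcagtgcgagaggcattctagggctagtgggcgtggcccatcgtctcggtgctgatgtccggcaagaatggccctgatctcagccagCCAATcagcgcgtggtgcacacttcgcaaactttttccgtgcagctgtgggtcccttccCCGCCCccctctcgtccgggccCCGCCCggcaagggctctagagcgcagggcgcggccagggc

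These windows differ in make-up. The GC content was 62% for Col1a2, 62.8% for Col5a3 and 35.2% for Col3a1. Col1a2 and Col5a3, which moved in opposite directions, each hold CCAAT once and GGGCGG 2 times, whereas Col3a1, which fell with Col1a2, holds neither. CAGACA occurs once in Col1a2, 2 times in Col3a1 and not in Col5a3. Of the other lower genes with a window, Col8a1 holds it, while Col4a1, Col4a2, Col4a5, Col6a1 and Col6a2 do not. It also occurs in windows of Col5a1, Col7a1, Col9a2, Col18a1 and Col20a1, none of which passed. Among the 35 collagen windows 34.3% hold CCAAT, 14.3% TATAAA, 54.3% GGGCGG and 25.7% CAGACA, against 33.8%, 12.4%, 32.7% and 17.1% of all 32851 windows. A match is only a run of letters in this window.

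Genes that act on collagen were read by the brightest tested probe of each gene, in the same fit. Of 15649 genes so measured 7.01% were lower and 4.12% higher, with a median of -0.04. Of 16 genes for the folding and export of new chains 4 were lower and 1 higher (median -0.21). The prolyl isomerase Fkbp10 was 2.55-fold lower (-1.35 ± 0.17, SE, n = 4; adjusted p = 0.00502 by limma) and the lysyl hydroxylase Plod2, which prepares the sites of crosslinks, 2.16-fold (-1.11 ± 0.14; adjusted p = 0.00505). Serpinh1, the collagen chaperone Hsp47, fell by 0.91 ± 0.18 on the log2 scale (adjusted p = 0.0217). Crtap, a subunit of the prolyl 3-hydroxylase complex, was also lower, and Mia3, which loads procollagen for export, was higher at 1.04 on 3 arrays. P4ha1, a catalytic chain of prolyl 4-hydroxylase, read 0.01 ± 0.15. Fkbp10 and Plod2 passed with any 1 array left out. The call of Serpinh1 ended without array 1, 2 or 4 (adjusted p = 0.140, 0.141 and 0.0668), as did that of Mia3 (0.0784, 0.130 and 0.0649), and that of Crtap without array 1 or 2 (0.0855 and 0.0906).

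Of 9 genes for the trimming and crosslinking of chains outside the cell 1 was lower. This was the lysyl oxidase Loxl2, which read -1.50, -1.96, -1.60 and -0.83, a mean of -1.47 ± 0.19 (SE, n = 4; adjusted p = 0.00556 by limma), and passed with any 1 array left out. Bmp1, the protease that removes the C-terminal propeptide, read 0.48 ± 0.13 and did not pass (adjusted p = 0.0560). The founding lysyl oxidase Lox was not tested.

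Of these pathway lists, that of fibril partners had the largest share lower, 7 of 13, with none higher and a median of -0.64. Besides proteins that bind collagen fibres it holds other matrix proteins, elastin among them. Sparc, a matrix protein that binds collagen, read -1.93, -2.28, -1.04 and -1.67, a mean of -1.73 ± 0.20 (SE, n = 4; adjusted p = 0.00393 by limma). Periostin (Postn) was 4.49-fold lower (adjusted p = 0.00326), and thrombospondin 2 (Thbs2), above background in the control livers only, by a factor of 2.14 or more (adjusted p = 0.00220). Thbs2 thus passed the filter only through the group where it was higher, and its place among the 7 depends on that filter. The small proteoglycans decorin and lumican (Dcn and Lum), elastin (Eln) and fibrillin 1 (Fbn1) were the others. Sparc, Postn, Thbs2 and Eln passed with any 1 array left out, while 5 members were lower without array 1 and 4 without array 2. The summed level of the 13 genes was 15.91 to 16.33 in the livers labelled Plin2-ASO and 16.80 to 17.25 in the control livers, with no overlap.

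Of 7 partners of type 4 collagen in basement membranes 2 were lower and none higher (median -0.46). Nidogen 1 (Nid1), which links laminin to type 4 collagen, was 3.31-fold lower (adjusted p = 0.00867 by limma) and the laminin chain Lamc1 1.86-fold (adjusted p = 0.0205). Among 7 collagen receptors Ddr1, a tyrosine kinase that collagen activates, was 4.44-fold lower (-2.15 ± 0.18, SE, n = 4; adjusted p = 0.00138), and the integrin chain Itga2 was higher (0.77 ± 0.13; adjusted p = 0.0136). Itga2 was well above background in 3 of the livers labelled Plin2-ASO and 2 control livers, so it passed the filter only through the group where it was higher, and its size is uncertain. The other 5 receptors did not pass. Ddr1 passed with any 1 array left out. Without array 1 or 2 no basement membrane partner passed (adjusted p = 0.0536 and 0.0597 for Nid1, 0.136 and 0.137 for Lamc1; 3 and 2 had an unadjusted p under 0.05), Lamc1 did not pass without array 4 either (0.0587), and the call of Itga2 ended without array 1 or 2 (0.118 and 0.0763).

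Of 8 genes of collagen breakdown 2 were lower and none higher (median -0.39). The collagenase Mmp8 was 2.81-fold lower (adjusted p = 0.00858 by limma), and the gelatinase Mmp2, above background in 3 control livers only, by a factor of 1.29 or more (adjusted p = 0.0400). Mmp2 thus passed the filter only through the group where it was higher, and its count here depends on that filter. In the TGF-beta pathway, the best known inducer of collagen genes in liver, 2 of 11 genes were lower (median -0.38), both of them ligands. Tgfb1 read -1.03, -1.08, -0.93 and -0.56, a mean of -0.90 ± 0.14 (SE, n = 4; adjusted p = 0.0105 by limma), and Tgfb3 was 2.15-fold lower (adjusted p = 0.0133). None of the measured receptors and Smad genes passed. Mmp8 passed with any 1 array left out, Mmp2 ended without array 1, 2 or 4 (adjusted p = 0.235, 0.217 and 0.0876), and no gene of the TGF-beta list passed without array 1 or 2 (0.0874 and 0.0869 for Tgfb1, 0.0806 and 0.0684 for Tgfb3; in both cases 3 had an unadjusted p under 0.05). With array 3 left out, 5 genes of that list were lower and 1 higher, and 6 of the 7 basement membrane partners were lower.

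**Figure D5:**
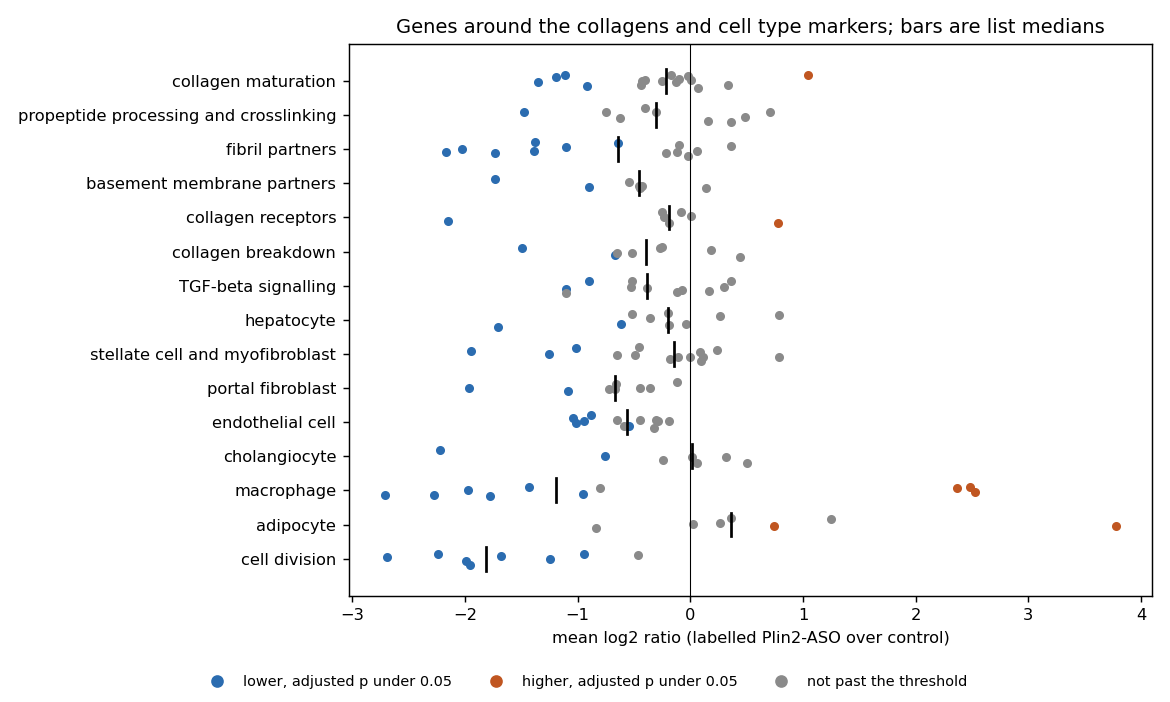
Mean log2 ratio (livers labelled Plin2-ASO over control) of each tested gene in the lists around the collagens and in the cell type marker lists, 1 point per gene at its brightest tested probe, jittered vertically, with a bar at the list median. The fibril partners reach from -2.17 to 0.36 with 7 of 13 lower, and the stellate cell markers are centred at -0.15.

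Markers of the cells that make collagen did not all move with it. In a whole liver, fewer cells of a type and less RNA per cell cannot be told apart. Of 14 markers of stellate cells and myofibroblasts 3 were lower and none higher (median -0.15), among them the retinol enzyme Lrat at -1.01 and vimentin (Vim) at -1.95. Desmin (Des) and smooth muscle actin (Acta2), by which these cells are usually recognised, read -0.18 ± 0.13 and 0.11 ± 0.16 and did not pass (adjusted p = 0.406 and 0.706 by limma). The summed level of the list was 15.41 to 16.86 in the livers labelled Plin2-ASO and 15.98 to 16.92 in the control livers, which overlapped. Of 8 portal fibroblast markers 2 were lower, Cd34 and Entpd2 (median -0.66), with summed levels of 11.70 to 12.60 against 12.81 to 13.23. Without array 1 or 2, 1 stellate marker and no portal fibroblast marker passed by limma (3 and 2 of the latter had an unadjusted p under 0.05), and without array 3, 6 and 6 were lower. All 14 stellate and all 8 portal fibroblast markers tested were well above background in all 8 livers.

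Markers of other cells moved beside the collagens. Of 12 endothelial markers 5 were lower (median -0.56; summed level 14.36 to 14.80 against 14.91 to 15.46 in the control livers), with Egfl7 and Tie1 at -1.04 and -0.94; none passed by limma without array 1 or 2 (5 and 6 had an unadjusted p under 0.05), and 11 were lower without array 3. A summed level weighs bright genes most and can differ from the list median. Of 10 macrophage markers 6 were lower and 3 higher (median -1.19, summed level 14.91 to 15.90 against 16.22 to 17.16). The higher ones were Clec4f, Marco and Vsig4, and the lower ones Cd68, Csf1r, Gpnmb, Trem2, Itgax and Lyz2. Of 7 bile duct markers 2 were lower (median 0.01, summed level 12.98 to 14.31 against 14.62 to 15.60). The bile duct median was 0.24, -0.05, -0.57 and 0.31 on arrays 1 to 4. Of 8 cell division genes 7 were lower (median -1.82, summed level 11.31 to 12.23 against 12.84 to 13.59). Of 9 hepatocyte markers 2 were lower (median -0.20, summed level 18.75 to 19.18 against 19.47 to 19.62). Of 7 adipocyte markers 2 were higher, with summed levels of 13.21 to 16.01 against 13.77 to 14.72. The adipocyte median was 0.39, 0.00, 1.82 and 0.52 on arrays 1 to 4, and the fat cell hormone adiponectin (Adipoq) read 0.39, 0.00, 4.10 and 0.52 and did not pass. Adipoq is a member of this list. On arrays 1, 2 and 4 its ratio and the list median are the same to 2 decimals, so they are not separate evidence. Both were highest on array 3, where 10 of the 13 collagen falls were smallest. Without array 1, 2, 3 or 4 in turn 1, 0, 3 and 0 adipocyte markers were higher by limma (2, 3, 5 and 2 had an unadjusted p under 0.05). Lower macrophage markers numbered 3, 4, 7 and 5 without each array in the same order, lower bile duct markers 1, 1, 2 and 2, and lower hepatocyte markers 1, 1, 3 and 1. The part of these cells in the collagen ratios was not tested.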

How the data were processed

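Two-colour Agilent arrays of 4 pairs of livers were analysed from the scanner output. The authors deposited spot intensity values (mean signal and median local background) extracted with Feature Extraction 9.5.1.1, per the file headers, without background subtraction. Flags of 0 or 1 for background, saturation and outliers are as deposited; no spot was saturated. The deposited log10 ratio of each spot is red over green after the software's own correction, and the authors' deposited series table has the same ratios on the log2 scale, equal for all 41174 probes within 6.2e-15; column medians were 0. Both served as alternatives, with the sign turned.

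Signals were background-corrected by normexp (offset 50), then ratios went through loess within each array, with control spots (1639 of 45018) at weight 0, in limma 3.58.1 (R 4.3.3, statmod 1.5.0). Levels are single channels after quantile normalization of average intensity (Aquantile). Outlier spots were set missing and spots of a probe averaged. Of 27160 probes past the filter 25843 were measured on at least 3 arrays and tested with lmFit and eBayes (7.48 total degrees of freedom, two-sided), with Benjamini-Hochberg adjustment over all of them. Every adjusted p is from this limma fit, and standard errors are its moderated ones. The script was tested on simulated data.

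The RefSeq table of GRCm38.p6 held all 40 gene names and 44 collagens; Col26a1, Col6a4, Col6a5 and Col6a6 had no probe under such a name. By accession 57 member probes matched, each to the same symbol. Named genes were all collagen probes past the threshold, the brightest probe of 20 collagens whatever its result, genes whose probes differed in sign, and of each pathway list the 2 with the smallest p plus Serpinh1, P4ha1, Lox, Loxl2, Sparc, Tgfb1 and Plin2; others named beside them, and all cell markers, were singled out after their values were seen. The value of 1 cell marker is not reported here. The members and lists were chosen with earlier results of these data known.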

Additional observations from a re-analysis of the deposited data

Results flagged for a closer look

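Of 30 named collagen probes measured on all 4 arrays, 2 had an array far from the other 3, by the gap to its nearest neighbour as a share of the whole range. Chance flags about 1 in 20 such groups. The upstream probe of Col4a2, a type 4 chain, read -0.52 on array 3 against -0.84 to -0.81 on the others, a gap of 0.909 of the range. The 3′ probe of Col18a1, the endostatin precursor, read -0.34 on array 4 against -0.02 to 0.01 on the others, a gap of 0.911 of the range. The second probe of Col18a1 read 0.12 on array 4.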

How the results depend on the processing

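The ratios within arrays already pair 1 mouse of each group, so the fit is itself paired, and no further fit with a replicate block was made. The alternatives changed the background correction (none, or an offset of 16), the normalization (by the median only, scaled across arrays, or corrected for GC), the ratios (those of the scanning software or of the deposited table), the filter (none or strict), outlier spots (kept), the test (channels apart, trend and robust variances, quality weights), the threshold (0.1) and the arrays (each left out). None of the 17 called collagen probes changed sign under any of them, and none that was tested lost its call except with an array left out. The strict filter left out Col4a5 and Col5a2, and the test of separate channels, which needs all arrays, Col1a2. Over all probes the number called was 1443 with trend and robust, 10179 with quality weights and 4484 at an adjusted p under 0.1, against 2582. Quality weights also gave 7 collagen probes higher in place of 3, and raised the number lower as well. Without the filter the fibrillar median was -0.091 and the basement membrane median -0.23. With 1 array left out, 5 to 18 collagen probes were lower, 2 to 7 higher and 509 to 8809 of all probes called, and the basement membrane median was -0.70 to -0.29. Signs turned only at uncalled probes, and the cause was not tested. Col5a1 (helix probe) read -0.0014 without background correction and -0.077 to 0.087 with an array left out. Col6a3 (3′ probe) read -0.23 with quality weights and -0.25 to 0.23 with an array left out. Col18a1 (3′ probe) read 0.0099 with the software's ratios and the series table and -0.12 to 0.0029 with an array left out. Col22a1 (3′ probe) read 0.16 with median centring, 0.10 with the software's ratios and -0.16 to 0.12 with an array left out. With an array left out, Col4a3 read -0.049 to 0.46, Col4a4 -0.28 to 0.048, the uncalled Col14a1 probe -0.014 to 0.10, and the Col15a1 probes -0.16 to 0.19 and -0.35 to 0.036. Signal too near the background kept 25 of the 78 collagen probes from being tested.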
